A study of Mus musculus with 3 samples.

Results

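The 4 Hox clusters were described as they appear on a CpG island tiling array that measured H3K27me3, trimethylated lysine 27 of histone H3, in mouse colonic epithelium. Members were all non-control probes of the array that lie in 4 genomic windows. In the coordinates that the array files give, they reach from 52087848 to 52246404 on chromosome 6 (HoxA), from 95991506 to 96183195 on chromosome 11 (HoxB), from 102749463 to 102887754 on chromosome 15 (HoxC) and from 74456371 to 74564736 on chromosome 2 (HoxD with Evx2). They numbered 490 of 97159 positioned probes (0.504%), with 167 in HoxA, 116 in HoxB, 85 in HoxC and 122 in HoxD. No measured value was used to choose them. Of the 490, 2 carried an outlier flag, 8 were not well above background and 480 were kept. Probes whose starts lay within 500 bp of each other were joined into islands of at least 3 kept probes, which gave 79 Hox islands of 13713 on the array (0.576%): 21 in HoxA, 20 in HoxB, 18 in HoxC and 20 in HoxD. The 6 kept probes outside islands and the 10 probes not kept gave no island value.

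The 3 arrays held chromatin of male BALB/c mice, each from a pool of 3 animals: untreated mice aged 7 weeks, untreated mice aged 23 weeks, and mice aged 23 weeks that had received 2% dextran sulfate sodium (DSS) for a week when 7 weeks old. DSS is a polymer that injures the colonic epithelium and causes colitis. The cells came from isolated crypts, so they were a crypt preparation of the colon and not a sorted cell type, and no probe carries a gene name with which to check markers of other cells. Each group had 1 array, so no difference between groups has a replicate check and no p-value between groups is given. In bulk chromatin, a change in the share of cells that carry a mark and a change in its level per cell cannot be told apart.

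Hox genes encode homeodomain transcription factors that set position along the body axis, and they lie in 4 clusters in mammals, in which gene order follows the order of expression along that axis. Polycomb repressive complex 2 lays down H3K27me3 over Hox clusters where they are silent, and its boundary within a cluster commonly lies between silent and active genes. In the adult gut, Hox genes retain regional expression, and Evx1 and Evx2 are homeobox genes that adjoin the HoxA and HoxD clusters. From low to high coordinate, the GRCm38.p6 gene table of RefSeq runs from Hoxb13 to Hoxb1 in HoxB, from Hoxc13 to Hoxc4 in HoxC, and from Evx2 and Hoxd13 to Hoxd1 in HoxD. The array files name no genome build and no gene, so no island was assigned to a gene, exon, intron or promoter.

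The array tiles CpG islands, and the CpG content of Hox gene promoters, which need not lie in such islands, is given as background. Of the Hox, Evx1 and Evx2 genes, 24 matched the RefSeq promoter table (GRCm38.p6) with 26 promoters, whose median was 14.5 CpG in 300 bases against 7 over all 32851 promoters. HoxA and HoxD gave 11 of these promoters each, HoxB 3 and HoxC 1, so the median says little of HoxB and HoxC. Printed are the 250 bases upstream of the start of 1 gene per cluster, 5′ to 3′ on the gene's strand, with each CG in capitals: Hoxc4, Hoxb4 and Hoxd4, which belong to the same paralogue group, and Hoxa5 in HoxA. They were chosen with the array values known, and the island that covers each, if any, is not known.
Hoxa5: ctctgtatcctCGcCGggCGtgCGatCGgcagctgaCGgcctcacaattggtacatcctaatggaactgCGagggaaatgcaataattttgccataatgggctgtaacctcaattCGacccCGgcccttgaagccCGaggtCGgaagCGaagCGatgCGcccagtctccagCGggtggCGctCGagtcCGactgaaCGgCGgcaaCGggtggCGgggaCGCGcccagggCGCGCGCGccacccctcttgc
Hoxb4: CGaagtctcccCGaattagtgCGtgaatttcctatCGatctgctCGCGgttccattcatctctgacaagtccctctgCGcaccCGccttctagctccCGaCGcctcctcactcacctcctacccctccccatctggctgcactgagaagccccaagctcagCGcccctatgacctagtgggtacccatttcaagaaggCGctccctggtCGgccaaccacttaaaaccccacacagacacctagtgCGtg
Hoxc4: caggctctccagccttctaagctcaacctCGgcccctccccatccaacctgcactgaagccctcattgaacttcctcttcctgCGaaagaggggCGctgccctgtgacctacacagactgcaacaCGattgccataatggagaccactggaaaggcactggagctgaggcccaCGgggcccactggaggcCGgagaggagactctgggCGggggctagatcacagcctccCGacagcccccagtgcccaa
Hoxd4: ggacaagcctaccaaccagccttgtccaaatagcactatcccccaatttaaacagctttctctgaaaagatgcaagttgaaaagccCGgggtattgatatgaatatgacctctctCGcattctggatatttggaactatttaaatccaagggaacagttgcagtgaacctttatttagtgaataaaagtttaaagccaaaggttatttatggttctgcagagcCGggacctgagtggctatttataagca

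In GRCm38.p6 the Hoxa5 sequence lies at chr6:52204588-52204837 on the minus strand, Hoxb4 at chr11:96318017-96318266, Hoxc4 at chr15:103034145-103034394 and Hoxd4 at chr2:74721728-74721977, the latter 3 on the plus strand. They hold 28, 14, 8 and 3 CG dinucleotides. As many or more occur in the same 250 bases of 7.61%, 29.4%, 43.0% and 71.0% of all promoters. No single promoter stands for its cluster. In the promoters of 300 bases, the median was 15 CpG in HoxA (4 to 45) and 20 in HoxD (4 to 37). The strand does not matter for this count, because CG reads the same on both.

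Each value is the log2 of immunoprecipitate over input after the median of all positioned probes was subtracted, so 0 is the level of a typical probe and 1 a 2-fold higher ratio; an island takes the median of its probes, and one at 1 or more is called marked. The spread printed with an island is the SD over its probes, and that printed with a cluster is the SD over its islands, each within 1 hybridisation. Probe log2 ratios had an interquartile range of 1.97 (7 weeks), 2.54 (23 weeks) and 1.55 (DSS), so high and low islands lie farther apart on the 23-week array, and the main differences are also given after scaling to a common interquartile range. After background subtraction, the immunoprecipitate had median intensities of 475, 120 and 268 in the same order, and no probe was saturated. Outlier flags fell on 2, 583 and 7 positioned probes. Not well above background in the immunoprecipitate were 2, 5 and 7 member probes, which overlap between arrays.

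**Figure D1:**
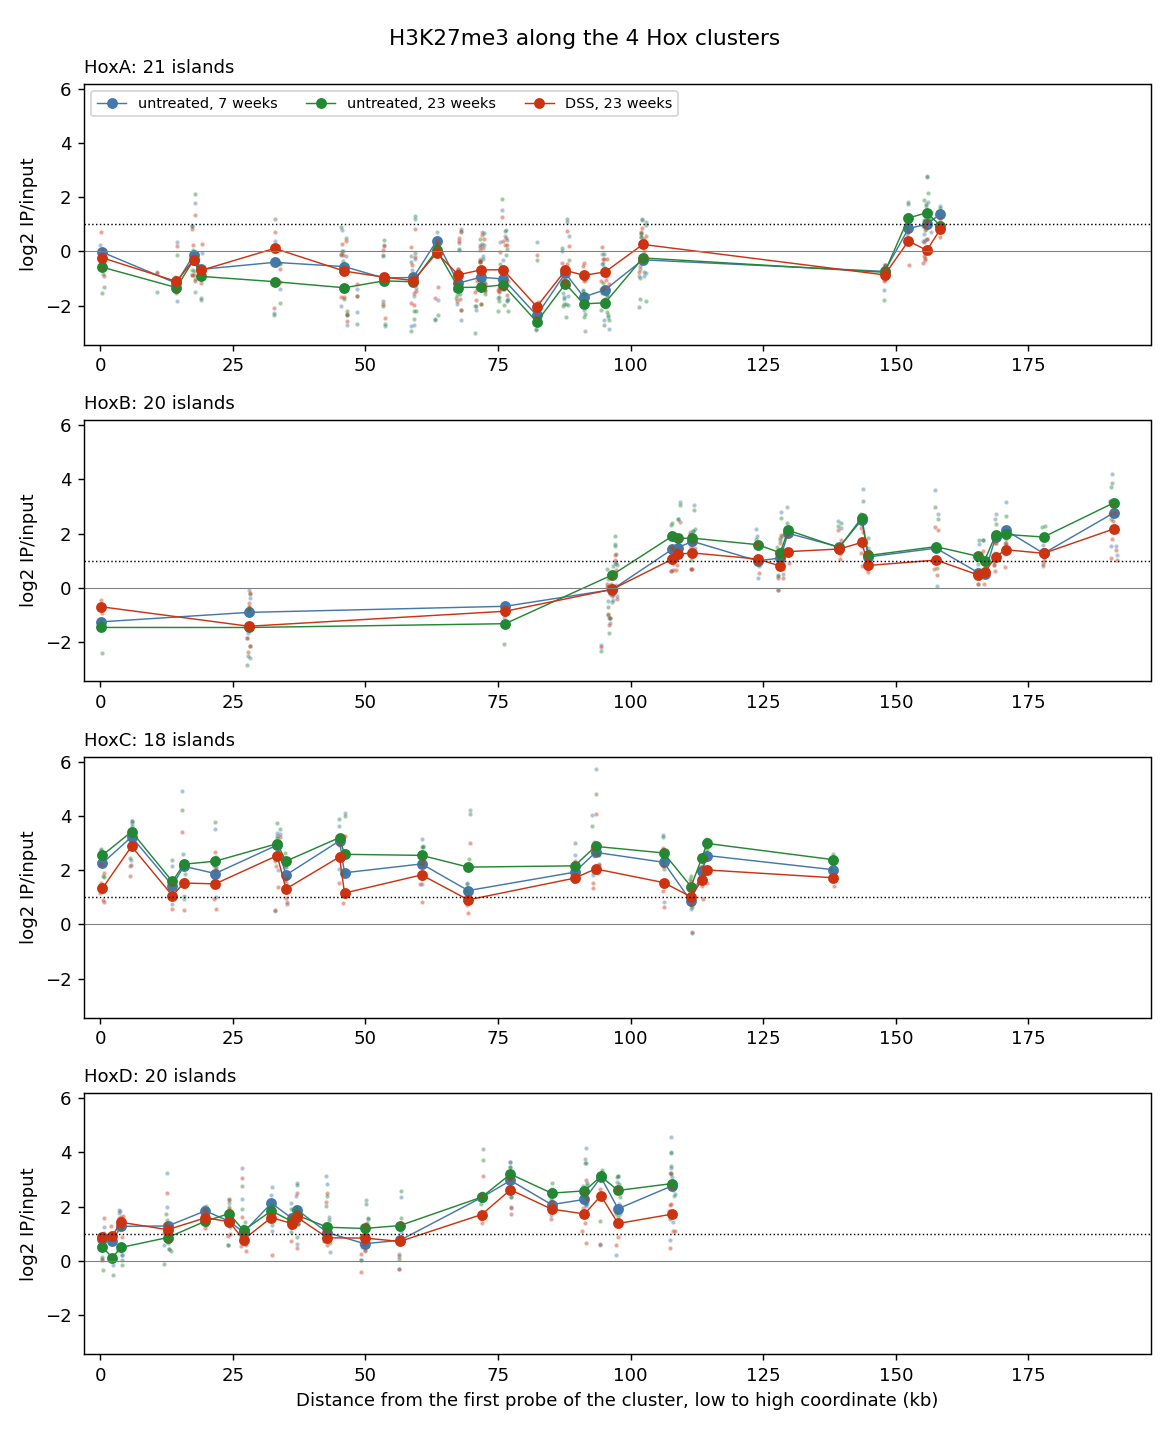
H3K27me3 along the 4 Hox clusters, with distance from the first island in kb on the x axis and the centred log2 of immunoprecipitate over input on the y axis. Large points joined by lines are island medians on the 3 arrays, small points are single kept probes, the dotted line is the marking level of 1, and the first 18 HoxA islands and the first 4 HoxB islands stay below it on every array.

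HoxC and HoxD were marked over most of their length, HoxB was marked on at least 1 array at each of its last 16 islands and on none at its first 4, and HoxA was almost free of the mark. Marked islands numbered 17, 18 and 17 of 18 in HoxC, 16, 16 and 14 of 20 in HoxD, 13, 16 and 12 of 20 in HoxB, and 1, 2 and 0 of 21 in HoxA, in the order 7 weeks, 23 weeks and DSS. Over the 79 islands this came to 47, 52 and 43, beside 20.8%, 26% and 14.1% of all islands on those arrays. Marked on all 3 arrays were 39 Hox islands and on none 24, beside 13.6% and 73.6% of all islands. The values at 7 weeks of the 79 islands followed those of the other arrays, with r = 0.975 (rho = 0.961) against 23 weeks and r = 0.971 (rho = 0.962) against DSS. Islands are not independent replicates, and the arrays share their probe sequences.

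HoxC had the highest median of the 4 clusters on each array. Its islands had medians of 2.08 ± 0.62, 2.50 ± 0.51 and 1.59 ± 0.55 on the arrays in that order (SD, n = 18 islands), against -0.15, -0.25 and -0.12 over all islands. Ranked among all islands of the array, its median percentiles were 95.5, 96.4 and 96.0. No HoxC island was below 0 on any array, and 10, 16 and 5 of them reached 2, a level that 5.28%, 10.6% and 1.06% of all islands reached. The island with the highest value at 7 weeks, HoxC island 2 at 102755171 to 102755614 (5 probes), stood at 3.23 ± 0.77, 3.42 ± 0.56 and 2.88 ± 0.55. Its percentile was at least 99.8 on every array. The lowest, HoxC island 15 at 102860652 to 102861048 (4 probes), stood at 0.85 ± 0.73, 1.39 ± 0.54 and 1.02 ± 0.83. A run of 10 islands from 102749463 to 102810397 was marked on every array, and the cluster's islands below and above its midpoint had like medians, 2.19 ± 0.60 and 1.99 ± 0.62 at 7 weeks.

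The mark around HoxC did not stop at the window. The 3 nearest islands below it, 174 to 228 kb from its first island, were marked on all 3 arrays with values of 1.64 to 2.40 at 7 weeks. Of the 3 nearest above it, those 26.3 and 109 kb beyond its last island were also marked on all 3 arrays, at 1.90 and 2.46, and the next was at 0.67. The nearest islands on either side of the other clusters were unmarked on all 3 arrays, 145 kb below and 323 kb above HoxA, 50.8 kb below and 410 kb above HoxB, and 76.3 kb below and 61.9 kb above HoxD. Of the 3 nearest islands on each side of these clusters, 2 were marked on all 3 arrays, 1 lying 373 kb above HoxD, at 2.18, 2.18 and 1.39, and 1 lying 970 kb above HoxA, at 1.52, 2.26 and 1.47, and the others were marked on none.

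HoxD was higher towards its high-coordinate end. Its medians were 1.71 ± 0.76, 1.57 ± 0.90 and 1.44 ± 0.52 (n = 20 islands), with median percentiles of 91.1, 82.2 and 94.1. The 12 islands with centres below the midpoint of the cluster had medians of 1.28 ± 0.48, 1.22 ± 0.55 and 1.26 ± 0.33, and the 8 islands above it 2.30 ± 0.74, 2.59 ± 0.59 and 1.73 ± 0.59. The 2 sets overlapped, since the upper begins with HoxD island 13 (74512638 to 74513148) at 0.76, 1.30 and 0.72. The 7 islands beyond it, from 74528074 to 74564736, were marked on every array, at 1.92 to 3.08 at 7 weeks. The highest of the cluster by the naming rule was HoxD island 15 (74533493 to 74533944, 5 probes) at 2.97 ± 0.76, 3.20 ± 0.52 and 2.62 ± 0.59, and the lowest at 7 weeks was HoxD island 12 (74505526 to 74506896, 9 probes) at 0.63 ± 0.68, 1.19 ± 0.56 and 0.84 ± 0.54. The first 2 islands, from 74456371 to 74458925, were marked on no array, at 0.80, 0.53 and 0.88 and at 0.72, 0.12 and 0.93. Those at 7 weeks and after DSS are close to the threshold. Under other settings the HoxD islands marked on no array ranged from 0 (scaling, quantile normalization and the deposited ratio table) to 5 (normexp).

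HoxB held the 1 pair of neighbours found in the 4 clusters of which one was marked on all 3 arrays and the other on none. HoxB island 4 (96087095 to 96088930, 15 probes) stood at -0.065 ± 0.75, 0.47 ± 1.04 and -0.057 ± 0.73, and HoxB island 5 (96099086 to 96099499, 4 probes), 10.2 kb farther, at 1.41 ± 0.72, 1.90 ± 0.60 and 1.05 ± 0.47. The call rests on a value close to the threshold: after DSS island 5 was at 0.97 with centring on kept probes and 0.89 with normexp, and with loess it was unmarked on all 3 arrays (0.65, 0.42 and 0.55). Within island 4, the 3 consecutive probes from 96088521 to 96088746 were at 1.26 to 1.91 at 23 weeks, above the other 12. The 4 islands up to this point span 97.4 kb of the cluster's 191.7 kb and had medians of -0.79, -1.39 and -0.78, while 11 of the 16 islands beyond it were marked on every array and the other 5 on some. The cluster as a whole had medians of 1.34 ± 1.10, 1.56 ± 1.27 and 1.06 ± 0.90 (n = 20 islands). Its highest island at 7 weeks was the last, HoxB island 20 (96181904 to 96183195, 9 probes), at 2.76 ± 0.98, 3.13 ± 0.64 and 2.17 ± 0.76. The lowest with at least 4 probes was HoxB island 2 (96019233 to 96019884, 7 probes) at -0.91 ± 0.89, -1.46 ± 1.00 and -1.42 ± 0.85. In the gene table the low-coordinate end of HoxB is that of Hoxb13, which lies apart from the rest of its cluster.

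HoxA lay below the array median over nearly all of its length. Its medians were -0.74 ± 0.91, -1.12 ± 1.02 and -0.70 ± 0.63 (n = 21 islands), at median percentiles of 25.1, 21.3 and 21.4, and 17, 17 and 16 of its islands were below 0, beside 56.2%, 56.8% and 56.2% of all islands. The first 18 islands, over 148 kb from 52087848 to 52235920, were marked on no array, and their values at 7 weeks ran from -2.36 to 0.39. HoxA island 13 (52169824 to 52170491, 4 probes) was the lowest, at -2.36 ± 1.48, -2.60 ± 1.19 and -2.04 ± 1.04. Its percentile was under 0.7 on every array. The last 3 islands, from 52240007 to 52246404, stood apart from the rest: they ran from 0.84 to 1.38 on the 7-week array, 0.95 to 1.42 on the 23-week array and 0.034 to 0.82 on the DSS array, and each of these ranges lay above the highest value of the other 18 at 7 and at 23 weeks but not after DSS. Of these 3, HoxA island 21 (3 probes) was the 1 marked at 7 weeks, at 1.38, 0.95 and 0.82 on the arrays in order. HoxA islands 19 and 20 were those marked at 23 weeks. The input of island 21, centred on the median of its channel, was 3.44, 2.48 and 3.80, above that of every other HoxA island. At the high-coordinate end of HoxA the gene table has Hoxa13 and then Evx1.

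The low ratio of HoxA came with a low immunoprecipitate and not with a high input. With each channel centred on its own median, the immunoprecipitate of HoxA islands had medians of -0.88, -0.81 and -0.81 and the input -0.13, -0.042 and -0.056. In HoxC they were 1.77, 2.54 and 1.51 against -0.20, 0.22 and -0.087. Per probe, 17, 23 and 5 of 161 kept HoxA probes reached 1, against 75, 83 and 65 of 84 in HoxC, and 24.0%, 30.7% and 17.1% of all kept probes did so.

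**Figure D2:**
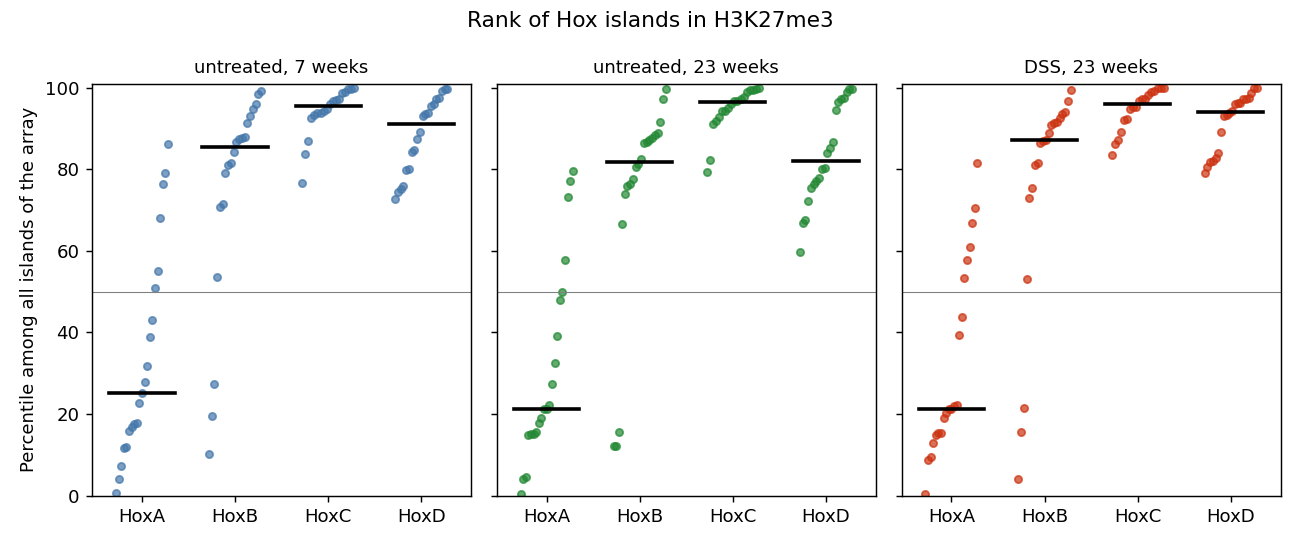
Percentile of each Hox island among all 13713 islands of the same array (y axis, 0 to 100) by cluster (x axis), 1 panel per array. Each point is an island and the bar is the cluster's median, which lies at 95.5, 96.4 and 96.0 in HoxC and at 25.1, 21.3 and 21.4 in HoxA.

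The order of the cluster medians from high to low was HoxC, HoxD, HoxB and HoxA on each array. HoxA minus HoxC was -2.82, -3.62 and -2.30, and HoxA minus HoxB was -2.08, -2.68 and -1.76. HoxB minus HoxD was -0.37, -0.016 and -0.38, less in size than the SD over the islands of either, and changed places on the 23-week array under 4 of 9 other settings (normexp background correction, the deposited ratio table, means over probes, and joining within 1000 bp). HoxC kept the highest and HoxA the lowest median under all of those settings on every array. In an exact two-sided sign-flip permutation test over the 3 arrays, each of the 6 pairs of clusters had p = 0.25 (0.25 after Benjamini-Hochberg adjustment over the 6), which is the smallest p that 3 arrays allow. Every pair had 1 sign on all 3 arrays, so the test gave this p whatever the size of the difference. The arrays are also different groups and not replicates, so no conclusion is drawn from the test. At 7 weeks 19 of 21 HoxA islands lay below every HoxC island, at 23 weeks 20, and after DSS all 21.

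Set beside other dense stretches of islands, HoxC stood above all of them and HoxA near the bottom. Outside the Hox windows, 76 bins of 200 kb held at least 10 islands, a size chosen after the values were known. The HoxC median was above those of all 76 on every array, that of HoxD above 76, 71 and 75, and that of HoxB above 72, 71 and 73. The HoxA median was above 2, 1 and 4 of them.

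Between untreated mice of 7 and 23 weeks, no Hox island was gained or lost at the 2-fold level, beside 0.0802% and 0% of all islands. Gained here means a difference of at least 1 with the later or treated value at 1 or more, and lost a difference of at most -1 with the earlier or untreated value at 1 or more. In HoxC all 18 islands had higher values at 23 weeks, with a median difference of 0.34 ± 0.17, but after scaling 14 of the 18 were lower and the median was -0.25. That of HoxB was 0.084 ± 0.33 (14 of 20 higher; scaled -0.27), that of HoxD -0.0060 ± 0.34 (10 of 20; scaled -0.49) and that of HoxA -0.13 ± 0.26 (6 of 21; scaled 0.0034). Over all islands the median was 0.033 and 53.9% were above 0, and islands outside the Hox windows that were marked on either array had 0.34 before and -0.062 after scaling. The HoxC median was as large as that of marked islands elsewhere before scaling and lower after it.

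HoxD islands 2 to 4, near the low-coordinate end of the cluster, had lower values at 23 than at 7 weeks. HoxD island 3 (74459810 to 74460750, 8 probes) went from 1.27 ± 0.66 to 0.49 ± 0.51, a change of -0.70 ± 0.30 with 8 of 8 probes lower. HoxD island 2 (74458432 to 74458925, 3 probes) went from 0.72 to 0.12, a difference of -0.60 ± 0.13 with 3 of 3 probes lower. HoxD island 4 (74468499 to 74469742) had -0.64 ± 0.73, with 6 of 8 probes lower. After scaling these were -0.89, -0.65 and -0.72 for islands 3, 2 and 4. The first island of the cluster, HoxD island 1 (74456371 to 74457058, 5 probes), had a difference of -0.19 ± 0.31 that was -0.41 scaled and 0.22 with loess. The most positive differences of their clusters were at HoxC island 7 (102784290 to 102784692), from 1.82 to 2.33 with a difference of 0.71 ± 0.37 (0.14 scaled), and HoxD island 13, from 0.76 to 1.30 with 0.54 ± 0.26 (0.26 scaled). HoxB island 5 had 0.52 ± 0.15 (0.094 scaled). In HoxA the most negative difference was at island 1 (52087848 to 52088619, 6 probes), from -0.032 to -0.59 with -0.66 ± 0.26 (-0.54 scaled), and the most positive at island 20, 0.40 ± 0.33 (0.074 scaled).

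**Figure D3:**
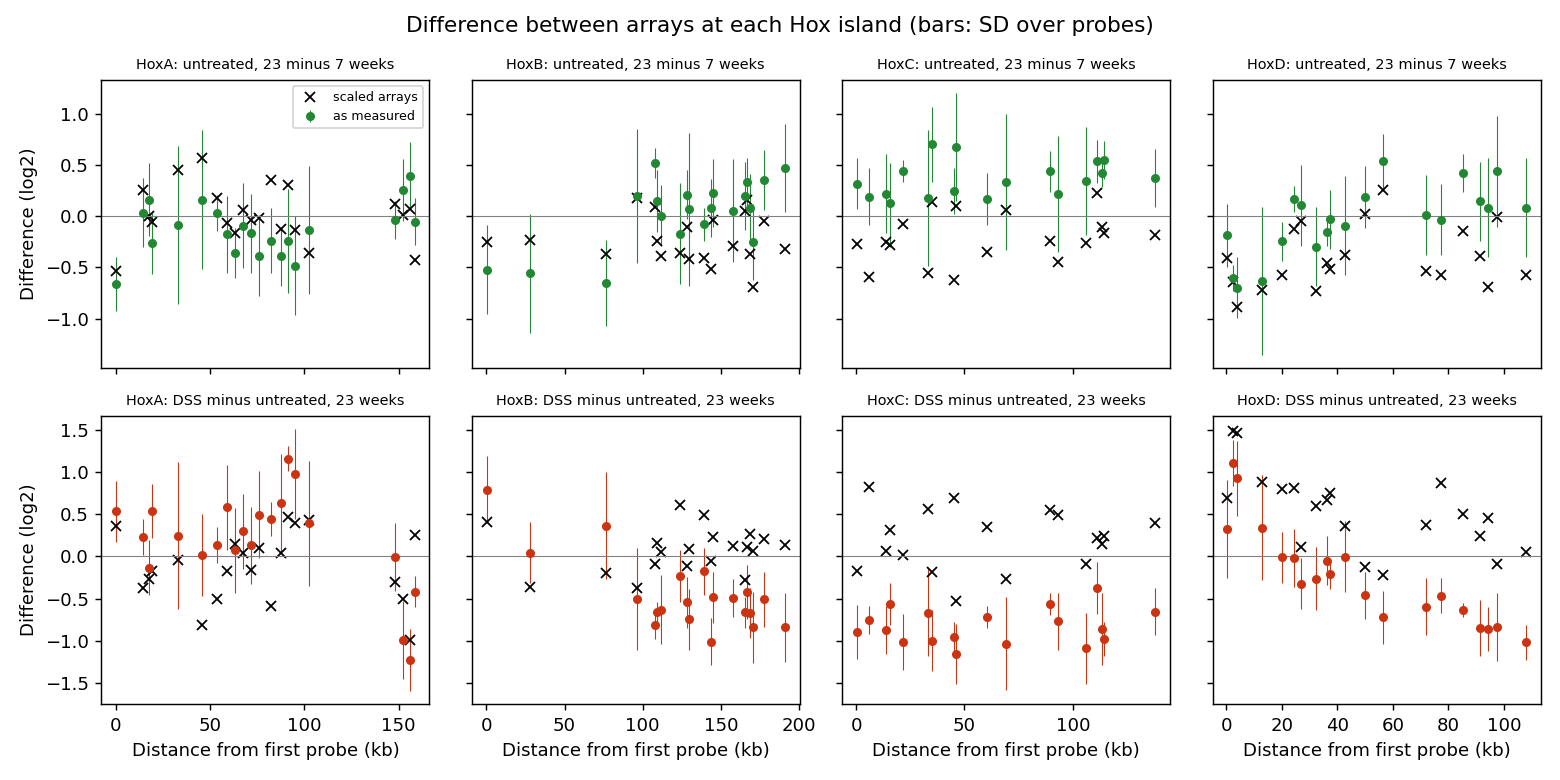
Difference in log2 of immunoprecipitate over input at each Hox island (y axis) against distance from the first island of its cluster in kb (x axis), for untreated mice of 23 minus 7 weeks in the upper row and DSS minus untreated mice of 23 weeks in the lower row. Coloured points are values as measured with the SD over the island's probes, and crosses are values after scaling to a common interquartile range, which lie above 0 for 17 of 20 HoxD islands after DSS.

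After DSS, 7 Hox islands were lost and none was gained against untreated mice of the same age, beside 3.34% and 0.00729% of all islands. An island can be lost only if it was marked at 23 weeks, as were 52 of the 79 Hox islands and 26% of all islands. Of the 3572 islands of the array marked at 23 weeks, 458 were lost. The 7 were 1 island of HoxA, 1 of HoxB, 4 of HoxC and 1 of HoxD, of which only the HoxA island and HoxC island 11 were below the marking level after DSS. The count depended on the settings: it was 3 when arrays were centred on kept probes in place of all positioned probes, and 0 after scaling, quantile normalization, loess or normexp. Of all islands, 2.14% were lost with centring on kept probes, and 0.146%, 0.153%, 0.139% and 0.248% after the others in that order. With the deposited ratio table the Hox count was again 7, of which 4 were the same islands, beside 5.56% of all islands. Median differences were -0.87 ± 0.21 in HoxC (18 of 18 lower), -0.53 ± 0.44 in HoxB (17 of 20 lower), -0.30 ± 0.58 in HoxD (16 of 20 lower) and 0.25 ± 0.56 in HoxA (16 of 21 higher). Over all islands the median was -0.020 with 48.4% above 0, and over islands outside the Hox windows marked on either array it was -0.76. After scaling the cluster medians became 0.23, 0.094, 0.55 and -0.16, and that of the other marked islands -0.049, so the sign turned in all 4 clusters.

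The difference after DSS ran against the level: over the 79 Hox islands it correlated with the value at 7 weeks at r = -0.75 (rho = -0.73), and over the 13634 other islands at r = -0.77 (rho = -0.76). These points share the probes of 3 arrays of unequal range, and scaled the values were 0.38 (rho = 0.41) and 0.26 (rho = 0.22). The part that the unequal range of the arrays has in these differences was not tested.

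HoxA island 20, at 52242929 to 52244433 with 15 probes, had the most negative difference of the Hox islands after DSS. Its values were 0.99 ± 0.70, 1.42 ± 0.51 and 0.034 ± 0.51. The DSS value was below both untreated values, and the difference of -1.23 ± 0.37 from untreated mice of the same age was negative at 15 of 15 probes, from -2.00 to -0.69. After scaling it was -0.997 and over the alternative settings it ran from -1.29 to -0.39, the smallest with loess. Of 3589 islands marked on either 23-week array, 112 had as low a difference, and of 3280 after scaling 21 did, this island included. The centred immunoprecipitate differed by -1.92 and the input by -0.30. Its neighbour, HoxA island 19 (52240007 to 52240450, 4 probes), went from 0.84 and 1.23 to 0.38, a difference of -0.99 ± 0.46 that was -0.51 after scaling.

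The other 6 lost islands kept high ranks. HoxC island 9 (102795294 to 102795767) went from 1.90 and 2.58 to 1.16, a difference of -1.16 ± 0.36, and HoxC island 14 (102855481 to 102855894) from 2.29 and 2.63 to 1.54, a difference of -1.09 ± 0.42. HoxC island 5 (102770926 to 102771383) and HoxC island 11 (102818494 to 102819203) had -1.02 ± 0.33 and -1.04 ± 0.55. HoxD island 20 (74563593 to 74564736) went from 2.77 and 2.85 to 1.72, lower at 11 of 11 probes. HoxB island 12 (96134843 to 96135321) went from 2.50 and 2.59 to 1.67, lower at 4 of 4 probes. The percentile of these 6 islands after DSS was 83.5 to 97.4, and scaled their differences ran from -0.53 to 0.055.

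HoxD islands 2 and 3 were higher after DSS than in untreated mice of the same age. HoxD island 3, at 1.27 ± 0.66, 0.49 ± 0.51 and 1.42 ± 0.26, had a difference of 0.93 ± 0.44 that was positive at 8 of 8 probes, and HoxD island 2, at 0.72 ± 0.52, 0.12 ± 0.39 and 0.93 ± 0.24, had 1.11 ± 0.27 at 3 of 3 probes. The 23-week value was the lowest of the 3 at both. DSS minus 7 weeks was 0.25 at island 3 and 0.48 at island 2, and 0.67 and 0.84 after scaling. Island 2 was named after its values were seen, since it has fewer probes than the naming rule asks. After scaling the differences were 1.46 and 1.49, both islands were gained, and 3 and 5 of 13713 islands had a difference as large as that of island 2 and of island 3, themselves included. Before scaling 53 and 163 islands did. The direction of these 2 islands was the same under every alternative run, with 0.82 to 1.49 for island 3 and 0.61 to 1.53 for island 2. All of these runs use the same 3 arrays. The rise after DSS and the fall with age at these islands share the untreated 23-week array, so they are not 2 separate results. The percentile of island 3 was 84.3, 66.9 and 93.9. Their neighbour HoxD island 1 had 0.33 ± 0.58, positive at 3 of 5 probes, which was 0.69 scaled and -0.066 with loess.

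At HoxD islands 2 and 3 the difference after DSS was larger in size in the input than in the immunoprecipitate. At island 3 the centred immunoprecipitate differed by 0.20 between DSS and untreated mice of 23 weeks and the centred input by -0.58, and at island 2 by 0.47 and -0.62. At island 1 the values were 0.43 and 0.17, and at island 4 0.21 and -0.11. Over the 20 HoxD islands the median was -0.57 in the immunoprecipitate and -0.26 ± 0.43 in the input. Input differences as low as that of island 2 also occurred at HoxD islands 9 and 14 (-0.65 and -0.64). There the immunoprecipitate differed by -0.89 and -0.83 and the ratio by -0.049 and -0.60. Between 23 and 7 weeks, island 3 differed by -0.19 in the immunoprecipitate and 0.37 in the input. For island 2 these values were 0.054 and 0.39, and for island 4 they were -0.10 and -0.077. The part of the input in the result was not tested. Within HoxD the 12 islands below the midpoint had a median difference of -0.016 ± 0.49 after DSS and the 8 above it -0.78 ± 0.18, all 8 lower. After scaling these were 0.72 and 0.31, so the lower set had the higher difference in both.

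In HoxA the most positive difference after DSS was at island 15 (52178783 to 52179235, 5 probes), from -1.69 ± 0.80 and -1.94 ± 0.42 to -0.89 ± 0.31, a difference of 1.16 ± 0.15 with 5 of 5 probes higher and 0.47 after scaling. It stayed unmarked on all arrays. Between DSS mice of 23 weeks and untreated mice of 7 weeks, which differ in age and treatment and share arrays with the comparisons above, no Hox island was gained or lost, beside 0.00729% and 0.634% of all islands. Of the 79, 17 were higher after DSS, beside 45.1% of all islands. Median differences were 0.053 ± 0.38 in HoxA, -0.37 ± 0.31 in HoxB, -0.45 ± 0.21 in HoxC and -0.23 ± 0.33 in HoxD, against -0.45 over marked islands elsewhere. After scaling they were -0.064, -0.065, 0.0084 and 0.15, against -0.14, so the sign turned in HoxA, HoxC and HoxD, and 38 of the 79 islands were higher.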

How the data were processed

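H3K27me3 immunoprecipitate (Cy5) and input (Cy3) of 3 pools were hybridised to 1 two-colour Agilent array each, with no dye swap. The scanner files hold intensity values that the authors obtained with Agilent Feature Extraction (10.7.3.1 per the file headers, 9.1 per the submitters' processing notes), background-subtracted and scaled for each dye, also per the file headers. A deposited table of all arrays holds a linear ratio per probe, made by steps not given in the sources used here, and served as an alternative. The log2 of red over green processed intensity was computed and centred on the median of all 97159 positioned probes, with no loess or quantile step. Of these 592 flagged probes and 5976 that lacked signal well above background in at least 1 channel of an array were left out, leaving 90591. Islands of at least 3 kept probes, joined within 500 bp, took the median, and differences were taken per probe first. Thresholds were 2-fold. No test between groups was possible with 1 array per group, and the effects of slide and scan cannot be told apart from those of the group. The number of arrays limits the precision.

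Islands were named by a rule: per cluster the highest and lowest at 7 weeks and the largest rise and fall in each main comparison (at least 4 probes, 80% of them changed the same way), each edge, each gained or lost island and the longest runs. The members, lists and rule were chosen with earlier results of these data known. Percentiles, 200 kb bins, flanking islands, the channel split, the sign-flip test, correlations, difference ranks and printed promoters were added with the values known. The gene and cell type lists could not be used, because no probe has a gene name. Calling was tested on simulated arrays of like range with set shifts, so that test cannot tell how calls behave between arrays of unequal range. Python 3.11.15, pandas 2.3.3, R 4.3.3 and limma 3.58.1 (loess, and normexp with offset 50) were used.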

Additional observations from a re-analysis of the deposited data

How the results depend on the processing

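No paired analysis was possible because each group had 1 array, and no replicate could be left out for the same reason. Of the values that answer a comparison, 366 moved by less than the spread over islands, or kept their count within 1.5 times, under the alternatives, and 48 did not. Values of named islands and counts of marked islands per cluster gave 298, 78 that moved and 5 that turned sign. A turned sign was counted only where the reported value was at least 1 in size. Smaller values also turned, such as the age differences of HoxA island 20 and HoxB island 5, -0.083 and -0.011 with loess. The cause was not tested. Lost islands after DSS, 7 as reported, numbered 0 with scaling, quantile normalization, loess, normexp and 3-fold calls and 3 with centring on kept probes. Of all islands, 0.0875% were lost with 3-fold calls, and the shares for the other settings are given above. Gained islands numbered 2 with scaling and with quantile normalization and 1 with means over probes, beside 0.0948%, 0.0948% and 0.00729% of all islands. Against 7 weeks, DSS gave 1 lost island with normexp and 2 with the deposited ratio table, beside 0.685% and 0.839% of all islands. At 3-fold, 31 Hox islands were marked at 7 weeks and 20 after DSS, beside 1468 and 555 of all 13713 islands. With scaling, the HoxC level at 23 weeks was 1.99. Differences with age were -0.27 in HoxB, -0.25 in HoxC and -0.49 in HoxD. Those of DSS against 23 weeks were 0.094, 0.23 and 0.55, and those of DSS against 7 weeks 0.0084 in HoxC and 0.15 in HoxD. HoxC island 5 turned to 0.012 and HoxD island 20 to 0.055. With quantile normalization, the age difference of HoxC was 0.16, DSS against 23 weeks gave 0.072 in HoxB, -0.041 in HoxC and 0.41 in HoxD, and DSS against 7 weeks 0.022, 0.13 and 0.24. With loess, the HoxC level at 23 weeks was 1.71, the age differences were -0.27 in HoxB and -0.19 in HoxC, and DSS against 23 weeks gave 0.11 and -0.093. DSS against 7 weeks gave -0.24 in HoxC, and HoxB island 12 turned to 0.25. With normexp, the HoxC level at 23 weeks was 1.89, its age difference -0.045 and its DSS difference -0.51. The HoxB median above minus below the midpoint at 23 weeks, 3.28 as reported, was 2.61 with scaling, 2.66 with quantile normalization, 1.53 with loess and 1.98 with normexp, and after DSS 2.60, 2.61, 1.48 and 1.46. With loess that of HoxB at 7 weeks was 1.43 and that of HoxD at 23 weeks 0.39. The mark on HoxA stayed low under every setting run: at most 1 of its islands was marked on all 3 arrays, and that 1 only with the deposited table. Signal over background limits the lowest values, since the probes not kept were mostly in HoxA.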

Other observations

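Some members had no island value. The 6 kept probes outside islands ran from -2.24 to -0.48 at 7 weeks, -2.67 to -0.45 at 23 weeks and -2.18 to -0.66 after DSS, so none reached the marking level. Of the 10 probes not kept, 1, 1 and 0 reached it. None of these 16 probes was marked after DSS and higher by 1 than on both untreated arrays.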
